A study of Mus musculus with 32 samples.

Results

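The departure of combined TNFα and IFNγ effects from the product of the separate effects was examined in Dnmt1-silenced mouse lung endothelial cells (ECs). The members were the 16 si-dnmt libraries of the 32 in the series, and the interaction was tested for 15250 of 54429 gene symbols that passed a filter on low counts. Veravec mouse lung ECs, a cultured cell line, were transfected with control siRNA or siRNA against Dnmt1, and bulk RNA-seq was run on 4 biological replicates of each state. The 4 si-dnmt states, all transfected with Dnmt1 siRNA, were no cytokine (si-dnmt), TNFα at 10 ng/mL (si-dnmt + TNF), IFNγ at 1000 U/mL (si-dnmt + IFN) and both cytokines (si-dnmt + TNF + IFN), with cytokine exposure of 16 h. The 4 si-control states had the same cytokines on control siRNA. The interaction is the log2 fold change to TNFα in the presence of IFNγ minus that in its absence. It is 0 where the 2 fold changes multiply, positive where both cytokines together gave more than that product, and negative where they gave less.

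TNFα signals through its receptors to NF-κB, and IFNγ signals through JAK kinases to factors that bind GAS elements and induce IRF1, which binds ISRE-type elements. Many inflammatory genes of endothelium carry sites for both pathways, and for some of them the cytokines are known to act together more strongly than either alone. In ECs these genes encode chemokines, adhesion molecules, antigen presentation proteins and antimicrobial GTPases. DNMT1 copies DNA methylation to the new strand at replication.

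The 16 si-dnmt libraries held 17362546 to 33500030 reads assigned to genes. Dnmt1 was between 5.11 and 17.3 counts per 1000000 (CPM) in them and between 86.5 and 211 CPM in the si-control libraries, so every si-dnmt library lay under every si-control library. All 10 endothelial markers were tested and summed to 3642 to 9499 CPM, the sum being 6742 to 9499 without cytokine, 6217 to 8221 with IFNγ, 4176 to 5753 with TNFα and 3642 to 5090 with both. The 6 epithelial markers summed to at most 0.297 CPM, and of 6 leukocyte markers only Cd68 reached 1 CPM, with Cd3e at 0 throughout. Fibroblast and mural markers summed to 44.8 to 242 CPM, led by Acta2. In a bulk sample, fewer cells of a type and less RNA per cell cannot be told apart. Replicates 1 and 2 of each state differed from replicates 3 and 4 in many genes, including Dnmt1, and the labels name no day or batch for them, so values are given below in replicate order and within each pair of replicates where the pairs differ.

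With both cytokines, 27 genes had more transcript and 27 genes less than the product of the separate fold changes in Dnmt1-silenced ECs (edgeR quasi-likelihood test on group means, Benjamini-Hochberg adjusted p under 0.05). This test left out the replicate number, so differences between the pairs of replicates counted as spread. A gene that it did not call was therefore not shown to lack an interaction. Interactions are given as log2 ± SE, and a value in brackets after one is its edgeR adjusted p. The SE was back-calculated as the size of the interaction divided by the square root of the F statistic of its test. It is approximate, and can be far off where the interaction is near 0 or reads are few. Each direction amounted to 0.177% of the genes tested and the pair to 0.354%, while 928 genes had an unadjusted p under 0.05. The median interaction of all genes was -0.01 on the log2 scale. With the replicate number as a block the counts rose to 164 genes higher (1.08%) and 233 lower (1.53%), 2.6% in all, and all 54 genes kept their call. DESeq2 gave 51 higher (0.334%) and 45 lower (0.295%), 0.63% in all. The 54 interactions had the same sign in replicates 1 and 2 as in replicates 3 and 4. Both pairs are parts of the libraries that picked these genes, so this agreement was largely built in and is no separate support.

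The single-cytokine effects of both groups were as follows. Of the 27 genes below the product, 25 had both single-cytokine fold changes above 0 and 21 had both at 2-fold or more, and the median log2 fold change was 2.27 for TNFα, 4.56 for IFNγ and 5.49 for both. Once IFNγ was present, TNFα changed them by a median of 0.50 log2 units. Of the 27 genes above the product, 19 did not move 2-fold with either cytokine alone, and their medians were 0.21 for TNFα, 0.19 for IFNγ and 1.08 for both, with 23 genes at their highest level under both cytokines. These counts and medians describe genes picked by the same contrast and carry no test. Over all genes tested the median was 0.008 for TNFα, -0.005 for IFNγ and 0.006 for both. The share of all genes was not computed for any count in this paragraph, so none is shown to be a trait of these genes. On the linear scale, where 2 independent effects would add, all 27 positive genes were above the sum of the single effects in CPM, and so were 18 of the 27 negative genes, leaving 9 below it. Where both single-cytokine changes go the same way, the product is at least the sum. For the positive genes of this kind, 14 raised by each cytokine alone and 5 lowered by each, the outcome followed from the selection. Of the 27 negative genes, 21 were at their highest level with both cytokines.

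**Figure D1:**
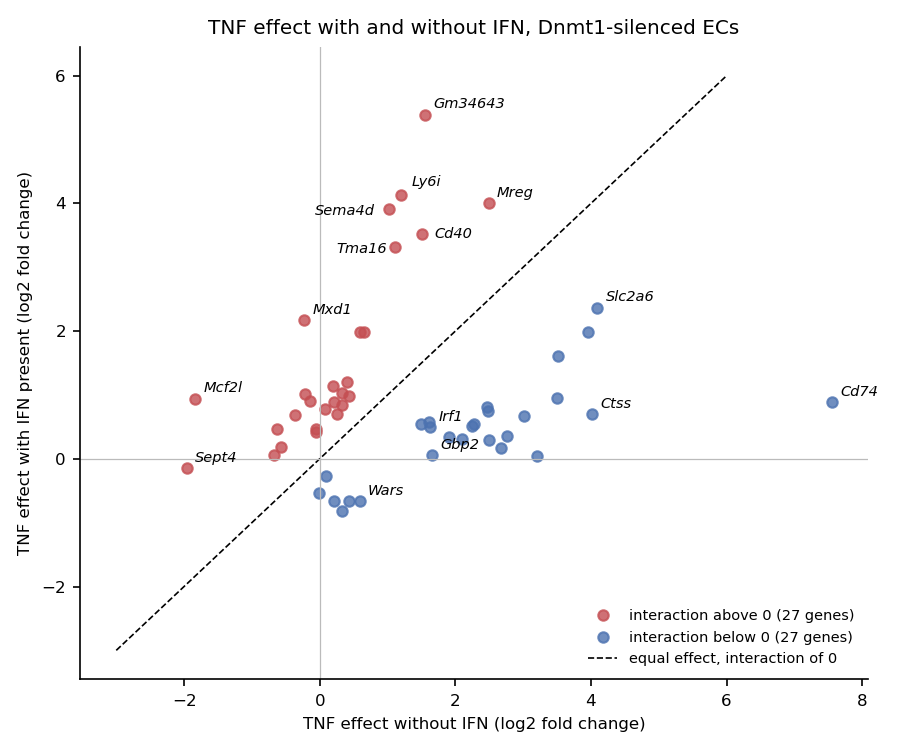
The log2 fold change to TNFα in the presence of IFNγ (y axis) against that in its absence (x axis) for the 54 called genes, with the dashed line at an interaction of 0. The 27 positive genes lie above the line and the 27 negative genes below it, most of the latter between 0 and 1 on the y axis while reaching 7.55 on the x axis, for Cd74.

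Of the transcription factors, Irf1 and Batf2 were called below the product. Irf1 is an early IFNγ target that drives many IFNγ-induced genes. Its CPM was 61.9, 55.9, 41.6 and 44.2 in si-dnmt, 171, 167, 149 and 142 with TNFα, 688, 712, 557 and 594 with IFNγ and 950.3, 993, 829 and 824 with both. The 4 states did not overlap and both cytokines gave the highest values. The mean with both was 899 ± 85.7 (SD, n = 4), above the sum of 744 and under the product of 1968. The interaction was -1.13 ± 0.20 (SE; edgeR adjusted p = 0.00365). Batf2, a bZIP factor induced by interferon, had 1.07, 1.24, 0.853 and 0.730 CPM in si-dnmt, 9.43, 10.1, 5.17 and 6.58 with TNFα, 106, 90.9, 66.4 and 82.2 with IFNγ and 143, 165, 117 and 122 with both. All values with both cytokines were above all values with IFNγ alone, yet the mean of 137 ± 22.1 was far under the product of 696. Its interaction was -2.36 ± 0.34 (edgeR adjusted p = 2.11e-04).

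Ciita, the master regulator of MHC class II genes, had 2 reads in total in the 4 si-dnmt libraries (exact 95% Poisson interval 0.242 to 7.22, counting error only), 217 with TNFα, 12198 with IFNγ and 13293 with both. Its CPM with IFNγ was 182, 186, 71.3 and 84.6 and with both 258, 283, 118 and 116, higher in replicates 1 and 2 than in replicates 3 and 4. The interaction of -6.10 ± 1.46 rests on those few reads, with an edgeR adjusted p of 0.0681 that fell to 7.31e-06 with the block.

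The guanylate-binding proteins (Gbps), interferon-induced GTPases of cell-autonomous defence, held the most calls of any list. Of 11 tested, 0 were called higher and 5 lower, all 11 interactions were negative and their median was -1.59, against -0.01 over all genes. With the block 9 of 11 were called lower. Gbp2 had the most reads, at 167, 157, 87.4 and 99.8 CPM in si-dnmt, 462, 486, 315 and 344 with TNFα, 4452, 4984, 3453 and 3682 with IFNγ and 4733, 5090.0, 3938 and 3511 with both. TNFα alone raised it above every untreated library, while the IFNγ and combined states overlapped. Its TNFα fold change was 1.65 without and 0.06 with IFNγ on the log2 scale, an interaction of -1.59 ± 0.28 (edgeR adjusted p = 0.00256).

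Gbp4 had 15.8, 14.2, 7.81 and 10.1 CPM in si-dnmt, 97.0, 115, 52.7 and 61.9 with TNFα, 1416, 1424, 1026 and 1020.5 with IFNγ and 1887, 1784, 1297 and 1267 with both. The last 2 states overlapped over all 4 replicates. Its interaction of -2.42 ± 0.34 (edgeR adjusted p = 2.11e-04), that of Gbp10 of -2.50 ± 0.42 (0.00176) and that of Gbp8 of -1.66 ± 0.31 (0.00676) were called in every fit with 1 library left out. Gbp6 had an interaction of -1.79 ± 0.37 (edgeR adjusted p = 0.0203), with an adjusted p of 0.0671 when the 16 si-dnmt libraries were fitted alone, and its call ended in 8 of 16 fits with 1 library left out. The paralogs Gbp4, Gbp8 and Gbp9 overlap on 1 strand in the GENCODE reference annotation, as do Gbp6, Gbp10 and the predicted gene Gm43302 at -2.20 ± 0.44, so reads may have been split between them and their separate values are uncertain. Irf1, Batf2, Psmb9, Ciita, Cxcl10, Cxcl11, Cd274, Vcam1, Icam1, Acsl1, Cd55 and Mcf2l are among the named genes that overlap genes on the opposite strand. The strand setting of the counting is not given in the sources used here. Mcf2l, Sept4 and Arhgef3 overlap predicted genes on their own strand, so their values are uncertain too. Of the immunity-related GTPases, 0 of 7 were called by edgeR or DESeq2 and 4 had an unadjusted p under 0.05, all 7 were negative and the median was -0.82. Tgtp2, the member with the most reads, had means of 1903 ± 578 CPM with IFNγ and 2216 ± 654 with both and an edgeR adjusted p of 0.427, or 5.65e-04 with the block. Gm12250, a further GTPase of this class outside the list, had 7.57, 8.38, 5.05 and 5.80 CPM in si-dnmt, 73.8, 83.3, 41.6 and 46.8 with TNFα, 508, 546, 334 and 358 with IFNγ and 532, 520.0, 387 and 358 with both. The last 2 states overlapped, and the interaction of -3.16 ± 0.40 (edgeR adjusted p = 3.90e-05) was called in every fit with 1 library left out.

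RefSeq promoter windows (GRCm38.p6, 250 bases before to 50 after the start) were matched for 15 of the 27 negative genes, 21 of the 27 positive genes and 10691 genes tested. The letters TTTC, any 2 bases and TTTC, read on both strands as an ISRE-type motif, were in the windows of 5 of the 15 negative genes (33.3%) and 0 of the 21 positive genes, against 3.96% of genes tested. The GAS letters TTCNNNGAA were in 2 of the 15 (13.3%), 1 of the 21 (4.76%) and 8.41%, and κB letters (GGG, any 2 bases, then TTTCC or TTCCC) in 2 of 15, 0 of 21 and 4.66%. A match describes these letters only, and other forms of these sites were not searched. The negative genes had a median log2 fold change to IFNγ of 4.56 and the positive genes of 0.19. No genes of like IFNγ response were compared, so a link between the letters and the interaction was not tested. Windows of 4 negative genes are shown 5′ to 3′ with the matches in capitals, because they span the motif types counted. A further Irf1 window, not shown, held no match. Irf1 (chr11:53769764-53770063, plus strand) holds a GAS match, Gbp2 (chr3:142620413-142620712, plus strand) an ISRE match, Gm12250 (chr11:58183593-58183892, plus strand) 2 ISRE matches and a GAS match between them, and Slamf8 (chr1:172590519-172590818, minus strand) an ISRE and a κB match.
Irf1: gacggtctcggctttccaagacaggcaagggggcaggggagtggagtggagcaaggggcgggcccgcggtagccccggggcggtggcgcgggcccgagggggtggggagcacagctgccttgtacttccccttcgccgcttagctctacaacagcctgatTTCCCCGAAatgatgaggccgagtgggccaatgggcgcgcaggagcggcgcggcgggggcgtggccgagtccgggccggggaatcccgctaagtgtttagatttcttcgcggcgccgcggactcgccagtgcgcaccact
Gbp2: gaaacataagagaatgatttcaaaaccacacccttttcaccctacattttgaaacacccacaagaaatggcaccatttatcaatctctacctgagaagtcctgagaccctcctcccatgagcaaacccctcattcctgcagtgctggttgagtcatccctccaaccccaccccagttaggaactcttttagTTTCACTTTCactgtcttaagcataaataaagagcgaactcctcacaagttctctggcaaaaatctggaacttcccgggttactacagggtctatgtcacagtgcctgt
Gm12250: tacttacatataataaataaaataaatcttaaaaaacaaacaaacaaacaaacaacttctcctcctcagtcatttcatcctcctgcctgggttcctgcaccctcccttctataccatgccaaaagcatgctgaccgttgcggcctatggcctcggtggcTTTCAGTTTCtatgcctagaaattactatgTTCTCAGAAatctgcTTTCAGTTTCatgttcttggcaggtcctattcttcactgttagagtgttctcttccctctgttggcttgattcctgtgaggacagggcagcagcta
Slamf8: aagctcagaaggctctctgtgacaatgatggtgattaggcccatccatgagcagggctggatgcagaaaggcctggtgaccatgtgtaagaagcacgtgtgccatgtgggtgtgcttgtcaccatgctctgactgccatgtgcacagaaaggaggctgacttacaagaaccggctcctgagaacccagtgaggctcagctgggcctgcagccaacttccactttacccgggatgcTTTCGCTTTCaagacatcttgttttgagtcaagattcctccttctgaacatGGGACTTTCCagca

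Antigen presentation genes were divided into MHC class I and class II lists. Of 14 MHC class I peptide loading genes tested, 0 were called higher and 3 lower, all 14 estimates were negative whether or not they passed, and the median was -0.84. With the block 11 of 14 were called lower, among them Tap1, Tap2, H2-K1, Psmb8 and Erap1. The 3 calls without the block were subunits of the immunoproteasome and its activator. Psmb9, an inducible catalytic subunit, had 11.4, 10.4, 6.31 and 8.62 CPM in si-dnmt, 54.0, 54.3, 37.5 and 30.7 with TNFα, 119, 137, 106 and 125 with IFNγ and 167, 171, 177 and 193 with both. The 4 states did not overlap. Its interaction was -1.73 ± 0.25 (edgeR adjusted p = 2.74e-04). Those of Psmb10 and of the activator subunit Psme2 were -1.05 ± 0.23 (0.0378) and -0.95 ± 0.22 (0.0413), calls that ended in 11 and 13 of the 16 fits with 1 library left out. B2m, the light chain of class I and the member with the most reads, had means of 1424 ± 463, 2358 ± 555, 2985 ± 772 and 3840.1 ± 939 CPM in the order none, TNFα, IFNγ and both, with an interaction of -0.36 ± 0.32 that did not pass the test (edgeR adjusted p = 1.000).

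For MHC class II presentation, 0 of 9 genes were called higher and 2 lower, all 9 were negative and the median was -3.31. The median was -3.73 in replicates 1 and 2 and -1.91 in replicates 3 and 4. Cd74, the invariant chain, had 6 reads in total in the 4 si-dnmt libraries (exact 95% Poisson interval 2.20 to 13.1), so its fold changes from the untreated state rest on those reads. Its counts were 2, 3, 0 and 1 in si-dnmt and 503, 405, 68 and 52 with TNFα, and its CPM was 393, 404, 133 and 145 with IFNγ and 636, 746, 299 and 316 with both. In each pair of replicates the combined state was above IFNγ alone, though the ranges over all 4 overlapped. Its interaction of -6.66 ± 1.26 (edgeR adjusted p = 0.00808) was -6.72 in replicates 1 and 2 and -5.85 in replicates 3 and 4. Ctss, the cathepsin that trims the invariant chain, had 0.401, 0.428, 0.307 and 0.243 CPM in si-dnmt, 6.68, 9.34, 3.14 and 3.09 with TNFα, 29.9, 34.3, 14.3 and 14.4 with IFNγ and 51.0, 56.3, 19.9 and 23.7 with both, with an interaction of -3.31 ± 0.68 (edgeR adjusted p = 0.0176) that lost its call in 3 of 16 fits. TNFα and IFNγ each raised it in every library, and replicates 1 and 2 were higher than replicates 3 and 4 in every cytokine state. With the block 6 of 9 class II genes were called lower, including H2-Aa and H2-Ab1, each with reads in only 1 of 4 untreated libraries.

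**Figure D2:**
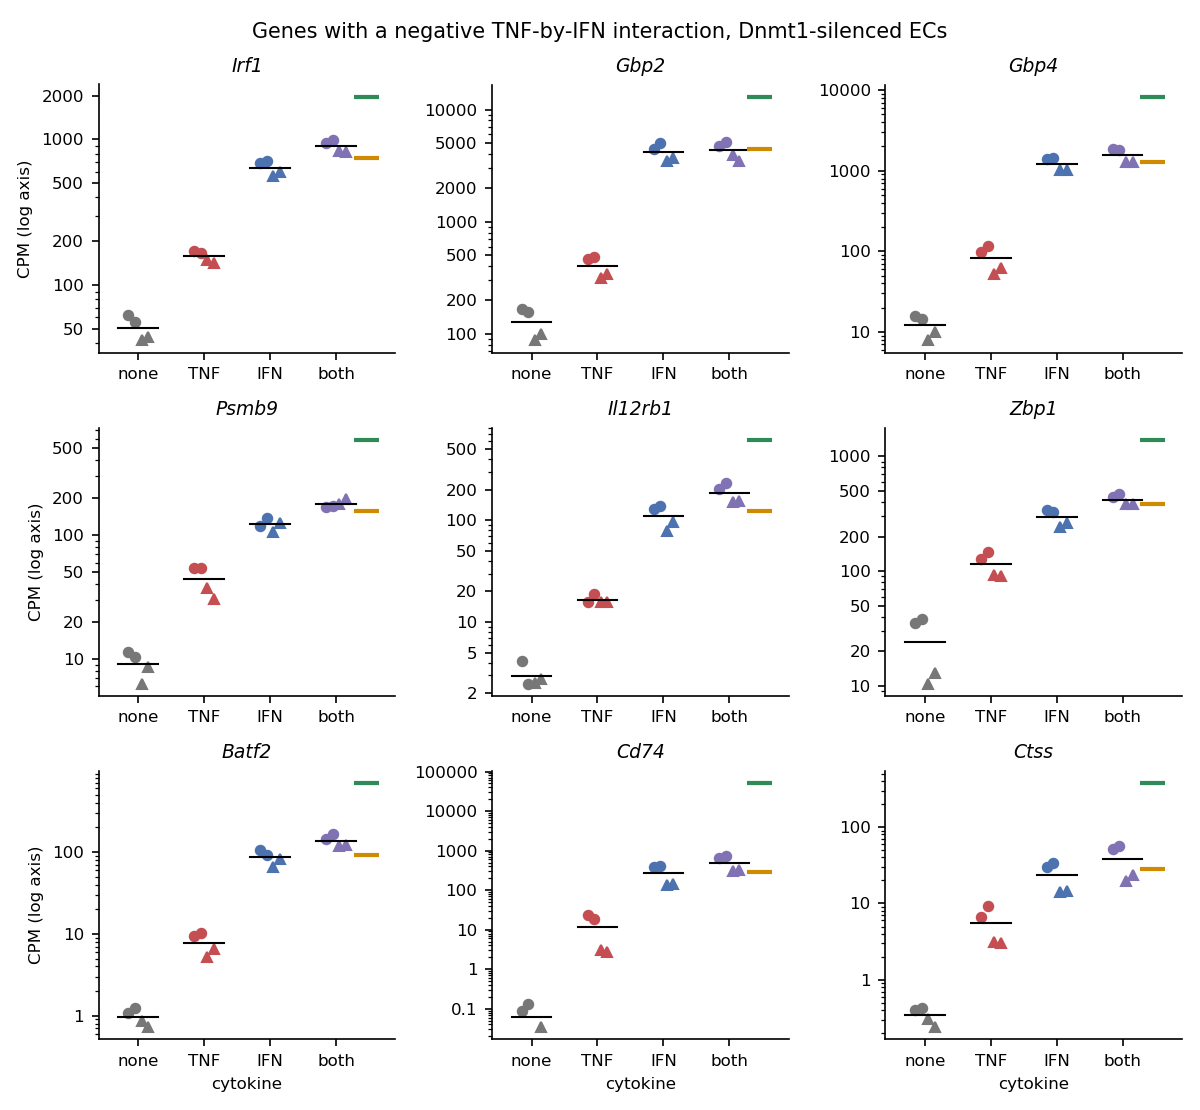
CPM on a log axis for 9 genes called below the product in Dnmt1-silenced ECs under no cytokine, TNFα, IFNγ and both, 1 point a library (circles replicates 1 and 2, triangles replicates 3 and 4), black lines the means of 4. At the right of each panel the green bar marks the product and the orange bar the sum expected from the single cytokines. Libraries at 0 (1 for Cd74) are not drawn, and the combined mean lies under the green bar in all 9 panels, as for Irf1 at 899 against 1968.

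Of the remaining negative genes, Il12rb1, a chain of the IL-12 receptor, had 4.14, 2.48, 2.49 and 2.75 CPM in si-dnmt, 15.8, 18.8, 15.6 and 15.8 with TNFα, 129.7, 137, 79.0 and 96.5 with IFNγ and 202, 234, 149.9 and 154 with both. The states did not overlap, and the interaction was -1.74 ± 0.27 (edgeR adjusted p = 6.82e-04). Zbp1, a sensor of Z-form nucleic acid that starts necroptosis, had 35.1, 38.2, 10.5 and 13.0 CPM in si-dnmt, 128, 146, 92.6 and 90.2 with TNFα, 341, 330.3, 242 and 262 with IFNγ and 439, 466, 385 and 381 with both. Untreated levels were lower in replicates 3 and 4, and no states overlapped. Its interaction of -1.74 ± 0.38 (edgeR adjusted p = 0.0323) had an adjusted p of 0.0974 in the 16 libraries alone, was -1.48 in replicates 1 and 2 and -2.36 in replicates 3 and 4, and lost its call in 10 of 16 fits with 1 library left out. It was the only call of 14 cell death and inflammasome genes.

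Slamf8, a receptor of the SLAM family, had 17 reads in total without cytokine, and its CPM was 3.20, 2.96, 2.08 and 2.42 with TNFα, 7.89, 9.04, 6.53 and 6.38 with IFNγ and 36.0, 38.4, 21.6 and 21.9 with both. The combined state was above all other libraries, and the interaction was -1.98 ± 0.43 (edgeR adjusted p = 0.0349, or 0.0727 in the 16 libraries alone). It was -1.29 in replicates 1 and 2 and -3.16 in replicates 3 and 4, and the call ended in 9 of 16 fits with 1 library left out. Slc2a6, a hexose transporter, was 1 of 4 negative genes with a larger fold change to TNFα than to IFNγ, with 2.23, 3.08, 1.95 and 2.33 CPM in si-dnmt, 40.6, 42.3, 39.2 and 41.1 with TNFα, 30.1, 27.3, 18.3 and 18.2 with IFNγ and 119, 131, 114 and 120.1 with both. The states did not overlap and the interaction was -1.72 ± 0.35 (edgeR adjusted p = 0.0166), a call that ended in 1 of 16 fits. Ms4a4d, of a family of 4-transmembrane proteins, AW112010, an interferon-induced transcript, and Apol10b, of the apolipoprotein L family, had interactions of -2.54 ± 0.43 (0.00176), -1.89 ± 0.25 (8.43e-05) and -1.56 ± 0.20 (4.09e-05), each called in every fit with 1 library left out. Apol10b and Ms4a4d have paralogs that could share reads.

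In 6 of the 27 negative genes the fold change to TNFα was below 0 once IFNγ was present. Wars, the tryptophanyl-tRNA synthetase, had 69.4, 68.3, 86.7 and 83.9 CPM in si-dnmt, 112, 116, 117 and 119 with TNFα, 1054, 1059, 806 and 878 with IFNγ and 611, 647, 595 and 552 with both. TNFα alone raised it above every untreated library, whereas every library with both cytokines was under every library with IFNγ alone. The interaction was -1.25 ± 0.19 (edgeR adjusted p = 3.48e-04). Eif4e3, a cap-binding protein, had 16.4, 17.6, 14.8 and 16.5 CPM in si-dnmt, 23.8, 24.9, 18.0 and 21.5 with TNFα, 53.9, 54.3, 43.5 and 45.6 with IFNγ and 33.0, 31.4, 32.3 and 28.1 with both, and an interaction of -1.10 ± 0.15 (8.43e-05). It had the same order of states as Wars, with no overlap between them. Cd55, which protects cells from complement, had 150.4, 168, 159 and 142 CPM in si-dnmt, 206, 203, 152 and 159 with TNFα, 116, 122, 118 and 116 with IFNγ and 82.2, 82.7, 69.6 and 64.1 with both. The combined state was under all other libraries, and the interaction of -0.88 ± 0.17 (edgeR adjusted p = 0.0105) was the only call of 8 complement genes. Flrt3, an adhesion protein with leucine-rich repeats, had an interaction of -1.14 ± 0.23 (0.0166), and lost the call in 2 of 16 fits. Ei24 and Plpbp had the smallest, -0.53 ± 0.12 (0.0360) and -0.37 ± 0.08 (0.0310), and lost the call in 12 and 10 of 16 fits with 1 library left out.

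On the other side, Cd40, the co-stimulatory receptor of antigen-presenting cells, was the only list member of the 27 genes above the product. Its CPM was 1.34, 1.33, 2.32 and 2.12 in si-dnmt, 5.54, 4.83, 5.40 and 4.68 with TNFα, 2.95, 3.28, 3.13 and 3.49 with IFNγ and 46.2, 41.3, 29.4 and 31.7 with both. The 4 states did not overlap. The mean with both, 37.2 ± 7.93 (SD, n = 4), compared with a sum of 6.55 and a product of 9.25. The interaction was 2.01 ± 0.40 (edgeR adjusted p = 0.0143), and the call ended in 1 of 16 fits, without si-dnmt replicate 3 (adjusted p = 0.0561).

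Mxd1, which competes with MYC for MAX, had 48.1, 40.2, 14.8 and 16.0 CPM in si-dnmt, 22.1, 23.3, 29.8 and 26.2 with TNFα, 47.5, 44.2, 22.8 and 23.5 with IFNγ and 149, 156, 157 and 162 with both. The combined libraries were close together and above all others, whereas without cytokine and with IFNγ replicates 1 and 2 were higher than replicates 3 and 4. The interaction of 2.41 ± 0.50 (edgeR adjusted p = 0.0193) was 2.69 in replicates 1 and 2 and 1.92 in replicates 3 and 4. The call ended in 6 of 16 fits with 1 library left out.

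Tma16, a ribosome biogenesis factor, had the lowest adjusted p of all genes. Its CPM was 8.59, 6.93, 11.2 and 9.63 in si-dnmt, 18.3, 18.4, 21.4 and 20.4 with TNFα, 8.56, 11.3, 10.2 and 10.2 with IFNγ and 81.0, 81.9, 122 and 118 with both. IFNγ alone left it within the untreated range apart from 1 library, and every combined library was above all others. The interaction was 2.21 ± 0.22 (edgeR adjusted p = 1.13e-06). Acsl1, which activates long-chain fatty acids, had 8.68, 9.54, 8.09 and 7.26 CPM in si-dnmt, 13.2, 12.9, 12.2 and 12.3 with TNFα, 8.78, 10.3, 9.48 and 10.2 with IFNγ and 42.4, 41.9, 36.4 and 33.3 with both. Only the IFNγ and untreated states overlapped, and the interaction was 1.39 ± 0.22 (edgeR adjusted p = 9.35e-04). St3gal5, the GM3 ganglioside synthase, was 42.3, 37.0, 38.7 and 42.8 CPM in si-dnmt, 36.3, 33.6, 32.4 and 35.6 with TNFα, 31.0, 28.7, 32.9 and 31.7 with IFNγ and 65.7, 69.9, 58.1 and 58.0 with both. Each cytokine alone gave values under every untreated library, and both together gave values above every one, with an interaction of 1.24 ± 0.14 (edgeR adjusted p = 9.15e-06).

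Mcf2l, Arhgef3 and Plekhg2 were all called higher. Mcf2l had 2.63, 2.44, 2.32 and 2.64 CPM in si-dnmt, 0.687, 0.845, 0.876 and 0.360 with TNFα, 1.28, 0.925, 0.828 and 1.24 with IFNγ and 2.15, 2.22, 2.20 and 1.68 with both. The single cytokines each gave values under every untreated library, and the combined state overlapped neither single-cytokine state. The interaction was 2.78 ± 0.32 (edgeR adjusted p = 1.06e-05), at a level of few CPM. Arhgef3 had 7.48, 4.96, 10.3 and 9.45 CPM in si-dnmt, 13.0, 12.4, 12.6 and 13.0 with TNFα, 14.3, 17.5, 14.5 and 15.5 with IFNγ and 65.6, 72.9, 54.9 and 52.9 with both, and an interaction of 1.33 ± 0.26 (0.0118). Its states did not overlap and both cytokines together were far above either. Plekhg2 was highest without cytokine, at a mean of 37.9 ± 4.08, and had 23.8 ± 1.25 CPM with TNFα, 32.7 ± 2.29 with IFNγ and 34.1 ± 1.08 with both (interaction 0.73 ± 0.14, 0.00975).

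Mreg, which acts in melanosome and lysosome traffic, had 0.890, 1.07, 1.36 and 2.26 CPM in si-dnmt, 7.10, 8.96, 7.56 and 8.23 with TNFα, 1.95, 2.56, 2.71 and 2.65 with IFNγ and 46.2, 49.2, 32.4 and 31.95 with both. The combined values were above all others, but the call (interaction 1.51 ± 0.34, edgeR adjusted p = 0.0413) ended in 12 of 16 fits, and without si-dnmt replicate 4, the highest untreated library, the adjusted p was 0.216. Sept4, a septin, had 19.3, 20.5, 12.4 and 12.4 CPM in si-dnmt, 4.99, 5.12, 3.27 and 3.14 with TNFα, 30.3, 33.8, 22.2 and 27.0 with IFNγ and 34.2, 33.5, 17.7 and 16.9 with both. TNFα alone gave values under every other library, and its log2 fold change was -1.96 without and -0.15 with IFNγ (interaction 1.81 ± 0.32, edgeR adjusted p = 0.00324). Fzd7, a Wnt receptor, had 33.7, 32.2, 30.6 and 38.2 CPM in si-dnmt, 21.2, 22.3, 20.6 and 23.4 with TNFα, 39.5, 37.9, 40.1 and 37.3 with IFNγ and 51.7, 54.3, 57.3 and 50.1 with both. It was lowest with TNFα alone and highest with both, with no overlap of these states with any other (interaction 1.09 ± 0.13, 1.96e-05).

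Among genes of few reads, Sema4d, a semaphorin that binds plexin B receptors, had counts of 13, 11, 9 and 21 in si-dnmt, 18, 33, 19 and 20 with TNFα, 5, 4, 5 and 8 with IFNγ and 72, 64, 49 and 56 with both. In CPM the combined state was above all others, with an interaction of 2.88 ± 0.43 (edgeR adjusted p = 3.15e-04). Ly6i, of the Ly6 family of surface proteins, had counts of 5, 3, 3 and 2 in si-dnmt, 4, 10, 4 and 7 with TNFα, 4, 5, 12 and 11 with IFNγ and 117, 143, 59 and 85 with both. Its call (interaction 2.94 ± 0.68, edgeR adjusted p = 0.0467) had an adjusted p of 0.0824 in the 16 libraries alone and 0.548 in replicates 3 and 4, and ended in 11 of 16 fits with 1 library left out. Its interaction was 4.28 in replicates 1 and 2 and 1.61 in replicates 3 and 4, and Ly6 paralogs could share its reads. The predicted gene Gm34643 had 78 reads with both cytokines and 10, 25 and 2 in the other states, and its fitted interaction of 3.84 ± 0.87 depends on those few reads. It was not called by DESeq2 (adjusted p = 0.0791), in replicates 1 and 2 (0.0693) or in replicates 3 and 4 (0.203), and lost its edgeR call in 12 of 16 fits with 1 library left out.

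The other positive genes had interactions from 0.45 for Socs7, a SOCS-box protein, to 1.04 for Ccdc80, a secreted matrix protein. The RNA-binding paralogs Cpeb3 and Cpeb4 were both called, at 1.04 ± 0.22 (0.0212) and 0.81 ± 0.16 (0.0133). Cpeb4 had means of 64.1 ± 6.67 CPM in si-dnmt, 84.6 ± 6.08 with TNFα, 86.0 ± 10.8 with IFNγ and 199 ± 15.0 with both. Inpp5b, an inositol phosphatase, and Psmf1, a proteasome regulator, had 0.95 ± 0.18 (0.00947) and 0.70 ± 0.15 (0.0323), with larger fold changes to IFNγ than to TNFα. Fbxl20, an F-box protein, had 0.75 ± 0.16 (0.0203) and was lowest with TNFα alone. Myo10, an unconventional myosin, Dse, a dermatan sulfate epimerase, Gmeb2, a DNA-binding protein, Sec24b, of the COPII coat, Plscr2, a scramblase, and Tbc1d13, a Rab GTPase-activating protein, had log2 interactions of 0.56, 0.67, 0.70, 0.52, 0.51 and 0.48. With 1 library left out, the calls of Cpeb4, Inpp5b, Dse and Plscr2 held in all 16 fits. Calls ended in 13 fits for Socs7, 12 for Ccdc80, 11 for Psmf1, 9 for Gmeb2, 8 each for Fbxl20 and Sec24b, 7 for Cpeb3, 6 for Myo10 and 5 for Tbc1d13.

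**Figure D3:**
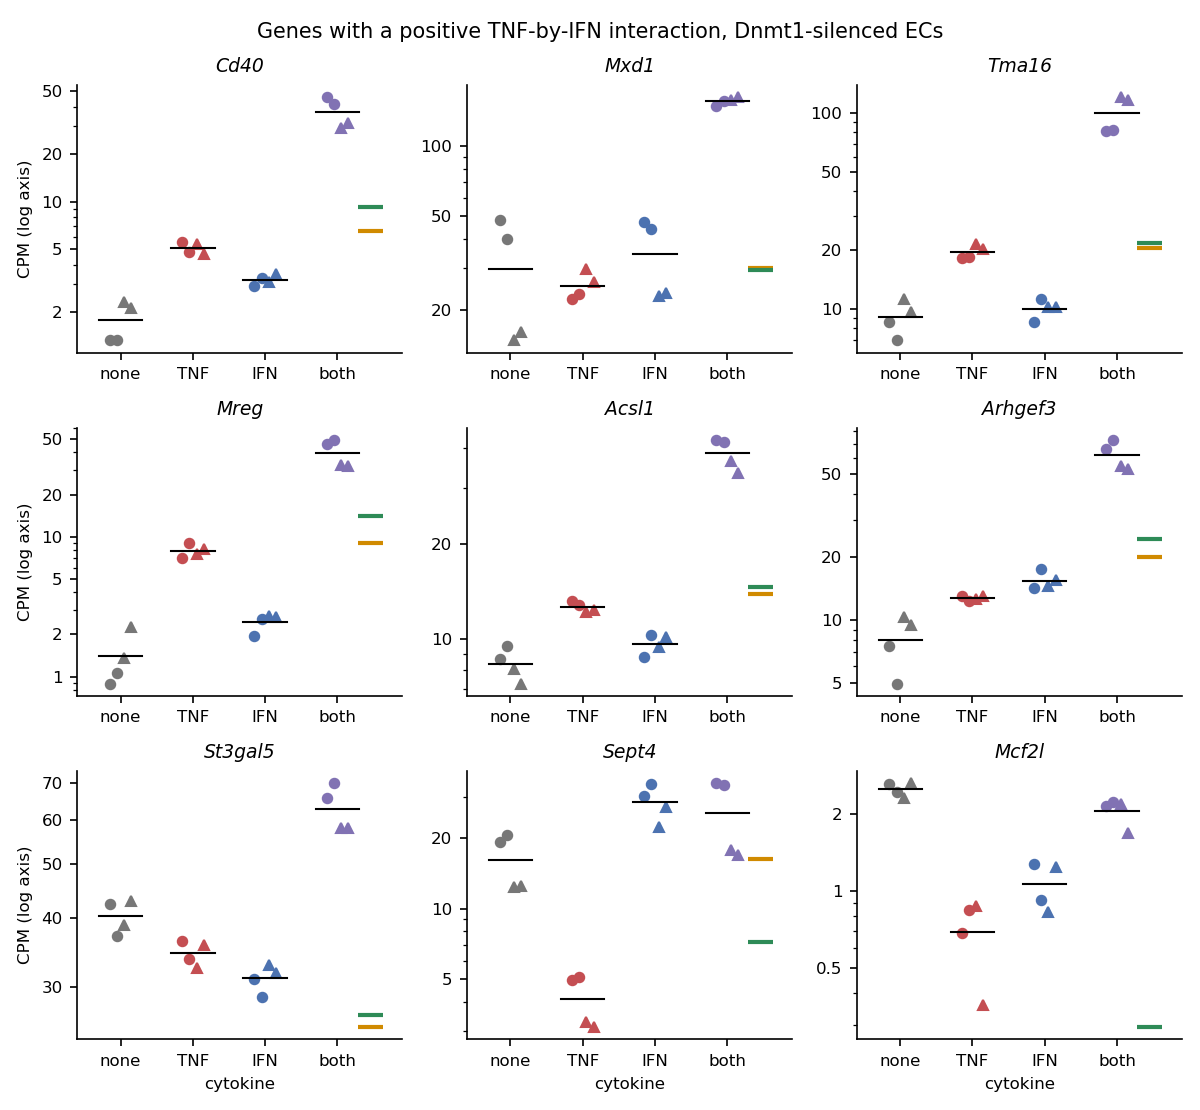
CPM on a log axis for 9 genes called above the product in Dnmt1-silenced ECs, drawn as for the negative genes with the product in green and the sum in orange. The combined mean lies above every bar drawn in the 9 panels, as for Cd40 at 37.2 against a product of 9.25. Where both single changes go the same way, the place above the sum follows from that above the product. No sum is drawn for Mcf2l, where it is below 0.

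Several genes whose combined level was far above that with either cytokine were not called in either direction. Cxcl9, a ligand of the T-cell chemokine receptor CXCR3, had 1.34, 2.35, 0.682 and 0.487 CPM in si-dnmt, 32.2, 31.7, 7.43 and 8.02 with TNFα, 687, 714, 212 and 190.2 with IFNγ and 8457, 8132, 4044 and 3888 with both. Every combined library was far above every other, and the mean of 6131 ± 2503 compared with a sum of 469 and a product of 7367. The interaction was -0.30 ± 0.75 (edgeR adjusted p = 1.000), with -0.54 in replicates 1 and 2 and 0.60 in replicates 3 and 4. Nos2, the inducible nitric oxide synthase, had 39.1, 42.2, 28.3 and 31.0 CPM with TNFα, 35.8, 44.0, 13.2 and 11.7 with IFNγ and 1652, 1841, 976 and 848 with both, from under 1 CPM without cytokine. The combined state was again far above the others, with an interaction of -0.96 ± 0.85 (edgeR adjusted p = 1.000), a sum of 61.0 and a product of 2562 CPM.

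The other CXCR3 ligands, Cxcl10 and Cxcl11, had means of 1854 ± 169 and 306 ± 128 CPM with both cytokines, against sums of 633 and 31.6 and products of 3461 and 638. Their interactions of -0.90 ± 0.39 and -1.05 ± 0.86 did not pass the test (edgeR adjusted p = 0.672 and 1.000). Cd274, which encodes PD-L1, had 23.6, 23.3, 21.5 and 22.3 CPM in si-dnmt, 92.2, 98.6, 72.9 and 74.1 with TNFα, 427, 490.2, 334 and 323 with IFNγ and 894, 886, 599.7 and 632 with both. The states did not overlap, and the interaction of -0.96 ± 0.34 had an edgeR adjusted p of 0.422, or 0.0138 with the block. Icosl, the ligand of ICOS, had 0.0445, 0.0855, 0.478 and 0.104 CPM in si-dnmt, 6.55, 6.43, 9.55 and 9.15 with TNFα, 0.445, 0.546, 0.506 and 0.317 with IFNγ and 11.6, 11.8, 9.43 and 9.83 with both. The TNFα and combined states overlapped and were above the others. The interaction of -0.79 ± 0.61 was not called (edgeR adjusted p = 1.000) and rests on 20 untreated reads, being -1.98 in replicates 1 and 2, -0.38 in replicates 3 and 4 and -1.97 without si-dnmt replicate 3. Tnfsf4, which encodes OX40L, was 21.2, 17.1, 21.2 and 19.4 CPM in si-dnmt, 45.4, 55.9, 64.1 and 64.1 with TNFα, 11.2, 11.2, 11.2 and 10.1 with IFNγ and 30.9, 29.7, 36.7 and 38.0 with both. The 4 states did not overlap, and the interaction of 0.09 ± 0.29 was close to 0 (edgeR adjusted p = 1.000).

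Of the adhesion molecules, Vcam1 had 91.4, 103, 139.8 and 119.6 CPM in si-dnmt, 1025, 946, 954 and 895 with TNFα, 223, 235, 257 and 211 with IFNγ and 1426, 1273, 1319 and 1284 with both. The states did not overlap, and the interaction was -0.55 ± 0.15 (edgeR adjusted p = 0.172, or 0.0374 with the block). Icam1 and Sele had interactions of 0.17 ± 0.30 and -0.20 ± 0.34 (edgeR adjusted p = 1.000 and 1.000). That of Dnmt1 itself was -0.09 ± 0.50 (1.000), and no departure from the product was detectable for the residual transcript.

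Over the 22 gene lists, 13 of the 27 negative and 1 of the 27 positive genes were members. Besides the lists above, interferon regulatory factors had 0 of 7 called higher and 1 lower (Irf1), with a median of 0.21, and co-stimulatory and inhibitory ligands 1 of 10 higher (Cd40) and 0 lower, with a median of -0.16. Cell death genes had a median of -0.01 and complement genes of -0.90. No gene was called, with edgeR, among 14 of the IFNγ receptor and JAK-STAT pathway (median 0.09), 15 NF-κB subunits and inhibitors (0.17), 14 TNF receptor genes (0.13), 9 CXC chemokines (-0.10), 8 CC and CX3C chemokines (-0.68) or 11 adhesion molecules (-0.18). The same held for 10 interleukins and colony-stimulating factors (-0.10), 19 antiviral genes (0.12), 11 of nitric oxide and oxidases (0.34), 9 of coagulation and vascular tone (0.18), 14 of endothelial identity (-0.22), 9 of matrix (-0.00), 20 of the cell cycle (-0.10) and 9 of DNA methylation (0.08). An unadjusted p under 0.05 was found in 0 to 3 members of each of these lists, and DESeq2 called 1 TNF receptor gene higher and no other member. With the block, calls in these lists were Tnfaip3, Traf1, Cflar, Il6 and Sod2 higher and Cx3cl1, Vcam1, Lama4, Top2a, Ccnb1, Ccna2 and Plk1 lower.

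Some further members that were not called show the range of values. Ifit2, an antiviral gene, had means of 169 ± 34.1, 573 ± 112, 694 ± 217 and 2014 ± 378 CPM in the order none, TNFα, IFNγ and both, an interaction of -0.23 ± 0.45 (edgeR adjusted p = 1.000). Mlkl, the executor of necroptosis, had 113 ± 6.09, 220.0 ± 8.28, 246 ± 13.6 and 435 ± 16.1 CPM and -0.13 ± 0.14 (1.000). Rsad2, which encodes viperin, had 259.6 ± 53.2, 644 ± 81.8, 379.9 ± 138 and 2248 ± 519.9 CPM and an interaction of 1.26 ± 0.62 that did not pass (edgeR adjusted p = 0.818). For the chemokine Ccl5 the sets of replicates went opposite ways, with -0.65 in replicates 1 and 2 (edgeR adjusted p = 0.0324) and 1.16 in replicates 3 and 4 (0.00430), and 0.10 ± 0.50 over all 4 (1.000). Ccl2, Csf1 and Il6 had interactions of -0.33 ± 0.42, -0.11 ± 0.19 and 1.17 ± 1.02, none of them called without the block.

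**Figure D4:**
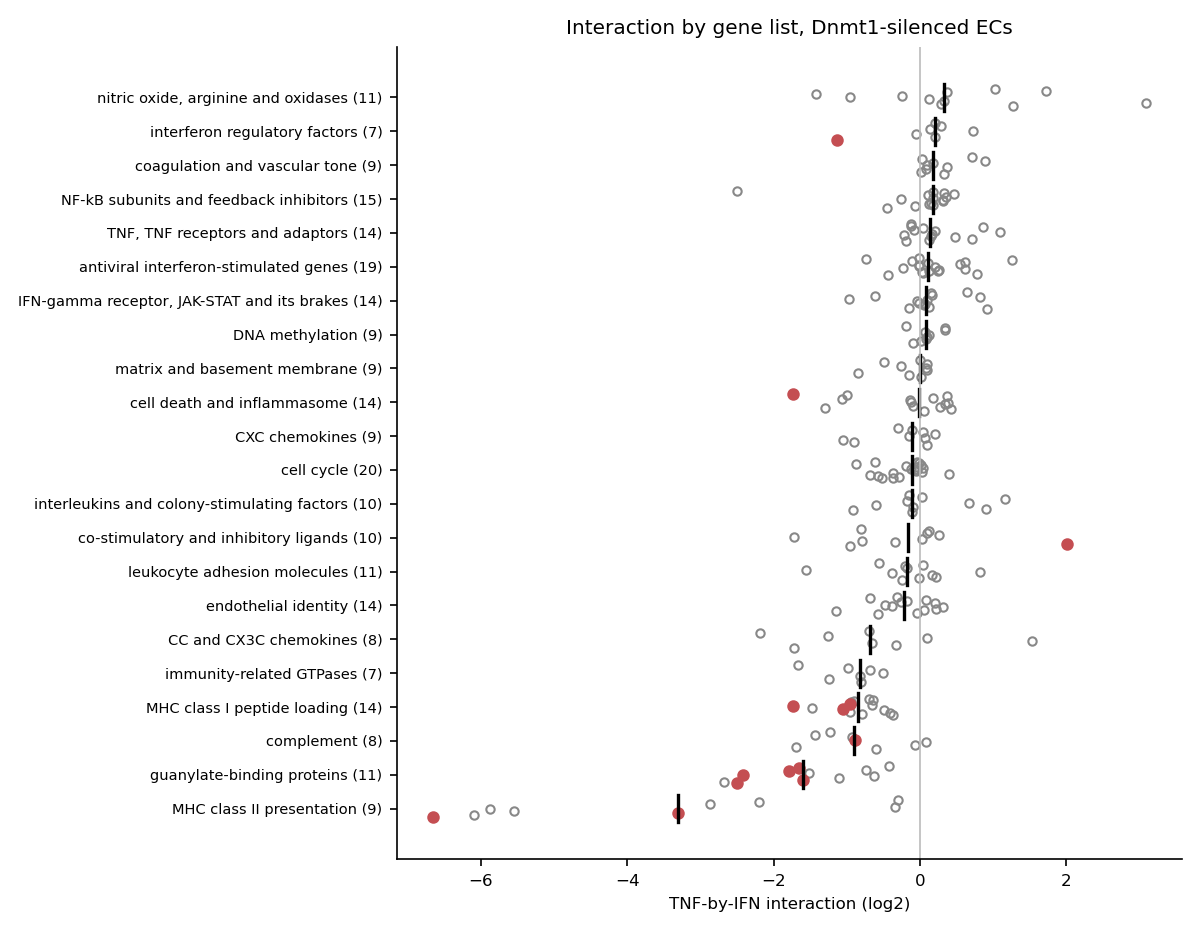
TNFα-by-IFNγ interaction (log2, x axis) of each tested member of the 22 gene lists, with the number tested in brackets, filled points called at an adjusted p under 0.05 and black lines the list medians. Lists are ordered by median, from -3.31 for MHC class II presentation to 0.34 for nitric oxide and oxidases.

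Control-siRNA libraries, which are separate from the si-dnmt libraries, gave 64 genes above (0.42%) and 99 genes below (0.649%) the product by the same test, 1.07% in all. Of the 27 positive genes, 17 were also called higher in si-control, which is 63.0% of the si-dnmt list and 26.6% of the si-control list. Of the 27 negative genes, 22 were also called lower, 81.5% and 22.2% of the 2 lists. The sign was the same in si-control for 27 of 27 positive and 26 of 27 negative genes. The difference between the 2 interactions was tested directly and passed for 0 genes (0.0%) by edgeR without the block, where 284 genes had an unadjusted p under 0.05. DESeq2 passed 2 genes (0.0131%), Tma16 and the predicted gene Gm6218, and the replicate block 3 (0.0197%), Tma16, Zbp1 and Gbp6, each with a higher signed value in si-dnmt. For Zbp1 (-1.74 in si-dnmt, -4.14 in si-control) and Gbp6 (-1.79 and -3.29) this was a less negative interaction, so a smaller departure from the product.

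For a few of the called genes, chosen after their values were seen, the separate interactions were as follows. Cd40 was also called higher in si-control, at 3.43 ± 0.48 (edgeR adjusted p = 6.65e-05) against 2.01 in si-dnmt. The difference of -1.42 for Cd40 did not pass the edgeR test. Tma16 had an interaction of 0.61 in si-control against 2.21 in si-dnmt, a difference of 1.61 (edgeR adjusted p = 0.109, and 0.0177 with the block), and its si-control CPM was 11.9, 10.9, 10.7 and 10.4 without cytokine, 19.3, 19.0, 23.0 and 23.8 with TNFα, 14.7, 14.9, 10.7 and 9.51 with IFNγ and 33.4, 33.9, 42.0 and 38.1 with both. Zbp1 had -4.14 against -1.74, and its si-control CPM was 3.43, 2.76, 3.87 and 2.06 without cytokine, 73.8, 89.6, 71.4 and 68.8 with TNFα, 306, 351, 225 and 245 with IFNγ and 458, 428, 365 and 349 with both. The untreated si-control level was under every untreated si-dnmt library. Il12rb1 was not called in si-control, at -0.50 against -1.74 in si-dnmt, with a difference of -1.24 that did not pass (edgeR adjusted p = 1.00). Of the 27 negative genes, 21 were farther from 0 in si-control, against 9 of the 27 positive genes. These genes were picked for their si-dnmt interaction, so the counts carry no test of a difference. Genes called higher in si-control had a median interaction of 1.10 there and 0.72 in si-dnmt. For those called lower in si-control the medians were -1.55 and -0.84. That selection favours si-control in the same way.

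**Figure D5:**
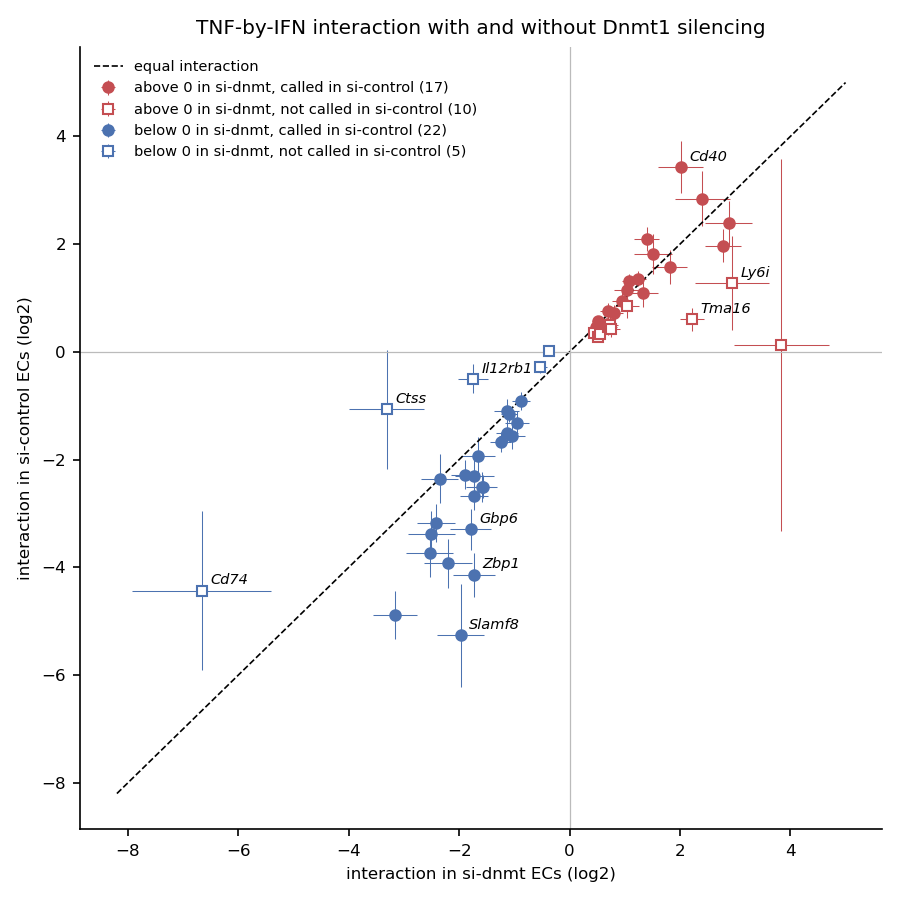
TNFα-by-IFNγ interaction (log2 ± SE) in si-control (y axis) against si-dnmt ECs (x axis) for the 54 genes called in si-dnmt, filled where also called in si-control (17 positive, 22 negative), with the dashed line at equal values. All but 1 gene lie on the same side of 0 in both, and no difference between them passed the edgeR test without the block.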

How the data were processed

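Bulk RNA-seq was analysed from 32 libraries of siRNA-transfected mouse ECs, 4 biological replicates in each of 8 groups, as the labels name them. The authors deposited raw read counts per gene. Their processing notes name cutadapt 4.9, FastQC 0.12.1, MultiQC 1.27.1, featureCounts and DESeq2, while the aligner, genome build, annotation and strand setting were not given in any source used. The merged count table held 54429 symbols and equalled the per-library tables summed over the 203 identifiers that share a symbol. Values printed as CPM are counts per 1000000 scaled by TMM factors (0.88 to 1.09). Depth limits the precision of genes with few reads, and the Poisson intervals cover counting error only.

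Genes were kept by filterByExpr with a minimum count of 10, and a quasi-likelihood model of the 8 group means was fitted to all 32 libraries in edgeR 4.0.16 (R 4.3.3, limma 3.58.1), with Benjamini-Hochberg adjustment over 15250 genes and a threshold of 0.05. The interaction was (both minus IFNγ) minus (TNFα minus none) on the log2 scale. The sum expected on the linear scale was TNFα plus IFNγ minus none. On simulated counts at 15040 genes the test called 59% of genes with a log2 interaction of 1 and 82% of those with 2, and 3 of 14840 genes given none. The simulated libraries were independent and lacked the difference between the pairs of replicates. Where the product exceeded 10 times the combined mean, the simulated mean was capped there. Such genes kept a negative interaction but were counted among those given none. These rates therefore do not carry over to the real libraries.

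Alternatives were DESeq2 1.42.0, RLE factors, no filter, a minimum count of 50, the 16 libraries alone, a replicate block, each pair of replicates and leaving out each library. The pairing was checked in the si-dnmt libraries as the correlation of deviations from group means. Same-numbered libraries of different states had r of 0.351 to 0.618 in 24 pairs, every one above 0.1, and the numbers were used as the block. The difference between the pairs of replicates could give such values by itself. Values above 0.1 therefore cannot tell pairing by number from likeness within a pair of replicates. The median r was 0.469 for the same number and 0.472 for different numbers of the same pair of replicates. Libraries of the same number were thus no more alike than others of their pair. Differently numbered libraries of the same pair of replicates had 0.399 to 0.557 and those of different pairs -0.59 to -0.339, and 7 of 16 libraries correlated best with their own number.

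The members and gene lists were chosen with earlier results of these data known. The genes named were 15 fixed genes, the 10 largest positive and negative called interactions with at least 10 counts on average in each group, the same sign in both pairs of replicates and no predicted-gene symbol, up to 3 of each sign with fewer counts, and up to 4 examples a list. Some genes that this rule names are not reported here. The remaining called genes and the list members called with the block were named after their values were seen. List examples that changed sign under an alternative are given only within their list's count, except Ccl5.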

Additional observations from a re-analysis of the deposited data

Results flagged for a closer look

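In 14 of 448 sets of 4 libraries of the genes named, 1 library lay far from the other 3, where chance gives about 1 in 20, so these values are listed without weight. Without cytokine the distant libraries were replicate 3 for Icosl at 0.478 CPM, replicate 1 for Sele at 54.0, replicate 1 for Il12rb1 at 4.14, replicate 4 for Ccl5 at 7.05, replicate 3 for Psme2 at 75.1, replicate 4 for Ccnb1 at 65.2, replicate 3 for H2-Aa at 0.0341 and replicate 1 for H2-Ab1 at 0.0445, the other libraries of the last 2 genes being at 0. With TNFα it was replicate 2 for Il12rb1 at 18.8. With IFNγ it was replicate 4 for Tnfsf4 at 10.1 and replicate 2 for AW112010 at 51.7. With both cytokines it was replicate 4 for Mcf2l at 1.68, replicate 4 for Nfkb1 at 284.8 and replicate 1 for Casp1 at 14.0. The calls of Il12rb1, AW112010 and Mcf2l held in every fit with 1 library left out.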

How the results depend on the processing

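The 54 calls kept their direction on the log2 scale under every alternative that gave them a value. These alternatives used the libraries that picked the genes, so the agreement was largely built in. The count of genes above and below the product was 51 and 45 with DESeq2, 45 and 77 in the 16 libraries alone, 164 and 233 with the replicate block, 303 and 435 in replicates 1 and 2, 137 and 181 in replicates 3 and 4, and 17 and 27 with no filter. Leaving out 1 library gave 16 to 28 above and 17 to 30 below. The count above was 16 without IFNγ replicate 4 and 17 without si-dnmt replicate 3, TNFα replicate 1 or IFNγ replicate 3, and the count below was 17 without TNFα replicate 2. The difference from si-control passed for 2 genes with DESeq2, 3 with the replicate block, 83 higher and 15 lower in replicates 1 and 2, 7 and 2 in replicates 3 and 4, and 0 to 2 with 1 library left out, the 2 without si-dnmt replicate 2. The cause was not tested. On the linear scale the departure had the opposite sign for 18 negative genes, which lay between the sum and the product, while 9 lay below the sum. The CPM above the sum was 61.5 for AW112010, 26.8 for Apol10b, 43.6 for Batf2, 218 for Cd74, 9.27 for Ctss, 46.2 for Gbp10, 268 for Gbp4, 99.8 for Gbp6, 75.4 for Gbp8, 19.8 for Gm43302, 60.8 for Il12rb1, 155 for Irf1, 13.1 for Ms4a4d, 10.1 for Psmb10, 20.5 for Psmb9, 19.5 for Slamf8, 59.1 for Slc2a6 and 33.5 for Zbp1. Of genes not called, Ccl5 was -0.65 in replicates 1 and 2 and -0.11 to 0.33 with 1 library left out, Cxcl9 0.0099 with the block, 0.60 in replicates 3 and 4 and -0.84 to 0.035, Dnmt1 -0.44 to 0.12 and Tnfsf4 -0.0029 to 0.16. Calls ended for 7 genes in the 16 libraries alone, 12 with no filter, 1 each with DESeq2 and RLE factors, and 3 and 6 in the pairs of replicates. The replicate block ended none. Few untreated reads limit Cd74, Ciita and Gm34643.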
